A study of Mus musculus with 37 samples.

Results

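The liver transcripts of 7 plasma carrier proteins (Alb, Ttr, Rbp4, Gc, Ambp, Serpina6 and Serpina7) were examined in mice given HFPO-DA, a short-chain perfluoroalkyl ether carboxylic acid. Every probe whose name carries one of these gene symbols was taken, which gave 8 probes for the 7 genes among 30146 probes for 21450 genes. Serpina7 had 2 probes and each other gene had 1, and the probe of a gene with the most counts is called its lead probe.

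The animals were wild-type Crl:CD1(ICR) mice of an oral gavage study, given HFPO-DA in deionized water each day per kg of body weight. The 4 dose groups of each sex received 0.1 mg, 0.5 mg, 5 mg or, as controls, 0 mg in the water alone. Males were about 6 weeks old at the first dose and were given 84 to 85 doses, starting 70 days before a mating period of 14 days. Females were about 11 weeks old at the first dose and were given 53 to 65 doses, starting 14 days before mating and ending on lactation day 20 or 21. Sex, age, lactation and length of dosing therefore cannot be told apart in any comparison of males with females. Probe counts were measured by TempO-Seq, a targeted assay that ligates pairs of detector oligos on RNA, in sections of formalin-fixed, paraffin-embedded liver. After the removal of 3 of 40 mice by the authors, the groups held 5, 5, 5 and 4 males from the control to the highest dose. The female groups held 5, 5, 4 and 4 mice in the same order.

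Plasma carrier proteins are made mainly by hepatocytes and secreted into the blood, where they hold small hydrophobic molecules in solution and limit their uptake and excretion. Albumin binds fatty acids, bilirubin and many drugs, and several of the other carriers each serve a single class of ligand, such as retinol, vitamin D, thyroxine or glucocorticoids. Their genes are known to depend on liver-enriched transcription factors, among them HNF1, HNF4 and C/EBP proteins.

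Total counts per mouse ranged from 2101495 to 13878254, and 4 dosed males had under 5000000. These were males 1 and 3 at 5 mg/kg (4147445 and 2101495), male 2 at 0.5 mg/kg (2608954) and male 4 at 0.1 mg/kg (4012015). The lowest male control had 6947711 and the lowest female 7952605, so among the 37 mice kept, low depth occurred only in dosed males. The mice that the authors removed for low depth or few probes included dosed females as well as a dosed male. Without these libraries, males 2 and 4 alone remained at 5 mg/kg. Male control 2 stood apart from the other male controls in acute-phase transcripts: its Orm2 reached 3016 CPM (counts per library scaled to a common total), against 5.28 to 12.7 CPM in the other 4 male controls. Its Orm1 was 1866 CPM, against 168 to 261 CPM. Orm1 and Orm2 encode orosomucoids, closely similar plasma glycoproteins induced by inflammation, and their probes may share reads. Values without this mouse are given below for the results in which it changed a call, a sign or an order.

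Ambp and Gc fell and Serpina7 rose in both sexes at the highest dose, and their promoters are shown with that of Alb for comparison. They are shown because the carriers share a tissue but not a direction of change. RefSeq windows of 300 bases, from 250 bases before the transcription start to 50 bases after it, matched 5 of the 7 genes (Alb, Rbp4, Gc, Ambp and Serpina7; GRCm38.p6). Capitals mark matches on either strand to GTTAAT (core of the HNF1 site), TGACCT (core bound by nuclear receptors), TTGCNNAA (C/EBP) or TATAAA (motif of the TATA box). The windows lay on the minus strand at chr4:63154123-63154422 for Ambp, chr5:89457849-89458148 for Gc and chrX:139085170-139085469 for Serpina7, and on the plus strand at chr5:90460620-90460919 for Alb.
Ambp: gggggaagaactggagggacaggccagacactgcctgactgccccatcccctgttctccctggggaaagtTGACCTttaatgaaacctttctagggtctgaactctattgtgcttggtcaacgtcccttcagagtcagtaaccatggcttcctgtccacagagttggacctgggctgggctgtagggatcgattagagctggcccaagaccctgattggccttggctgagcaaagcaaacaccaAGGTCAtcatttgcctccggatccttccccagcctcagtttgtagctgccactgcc
Gc: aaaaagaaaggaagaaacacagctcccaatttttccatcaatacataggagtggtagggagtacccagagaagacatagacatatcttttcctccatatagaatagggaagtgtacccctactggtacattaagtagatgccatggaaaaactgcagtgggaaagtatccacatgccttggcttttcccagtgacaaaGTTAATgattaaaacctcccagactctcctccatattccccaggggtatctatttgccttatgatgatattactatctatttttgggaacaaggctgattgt
Serpina7: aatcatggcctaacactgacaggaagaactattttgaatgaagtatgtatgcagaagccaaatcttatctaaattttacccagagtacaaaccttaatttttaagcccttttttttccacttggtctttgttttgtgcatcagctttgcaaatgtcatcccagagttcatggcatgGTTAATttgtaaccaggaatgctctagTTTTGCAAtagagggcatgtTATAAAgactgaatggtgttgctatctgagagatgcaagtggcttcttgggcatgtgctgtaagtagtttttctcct
Alb: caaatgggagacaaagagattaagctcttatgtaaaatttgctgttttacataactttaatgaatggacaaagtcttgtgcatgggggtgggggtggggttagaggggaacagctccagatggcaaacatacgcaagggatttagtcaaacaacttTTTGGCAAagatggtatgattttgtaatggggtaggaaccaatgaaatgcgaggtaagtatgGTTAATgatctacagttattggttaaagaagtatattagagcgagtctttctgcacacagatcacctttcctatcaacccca

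GTTAAT was present in the windows of Alb, Gc and Serpina7, and in 7.1% of 32851 promoter windows of the same length. It ended at base -27 in Alb and base -47 in Gc, counted back from the RefSeq start used for each window. The RefSeq start of Alb lay upstream of the gene start given below, base 90460897. The Ambp window, and the Rbp4 window named next, lay wholly inside the gene bounds given below. These 2 windows therefore held no sequence upstream of those bounds. C/EBP matches were found in Alb, Serpina7 and one window of Rbp4 (10.8% of all windows), and TATAAA in Serpina7 and the same Rbp4 window (13.6%). Of the windows of these 5 genes, only that of Ambp held TGACCT, with 2 matches on opposite strands (16.3% of all windows). Gc, which fell, and Serpina7, which rose, both held GTTAAT. Whether any motif goes with the direction of change was not tested. These matches describe the letters alone.

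The 7 genes spanned a wide range of counts. Alb, Ambp and Ttr ranked 6, 7 and 17 among all probes by total count and together took 91.5% of the carrier counts. Gc, Rbp4 and Serpina6 ranked 139, 253 and 268. The lead Serpina7 probe ranked 3531 and its second probe 11126. Probes differ in efficiency, so CPM were compared between mice for the same probe and not between genes. Fewer hepatocytes in a section and less RNA per hepatocyte cannot be told apart in these bulk samples.

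**Figure D1:**
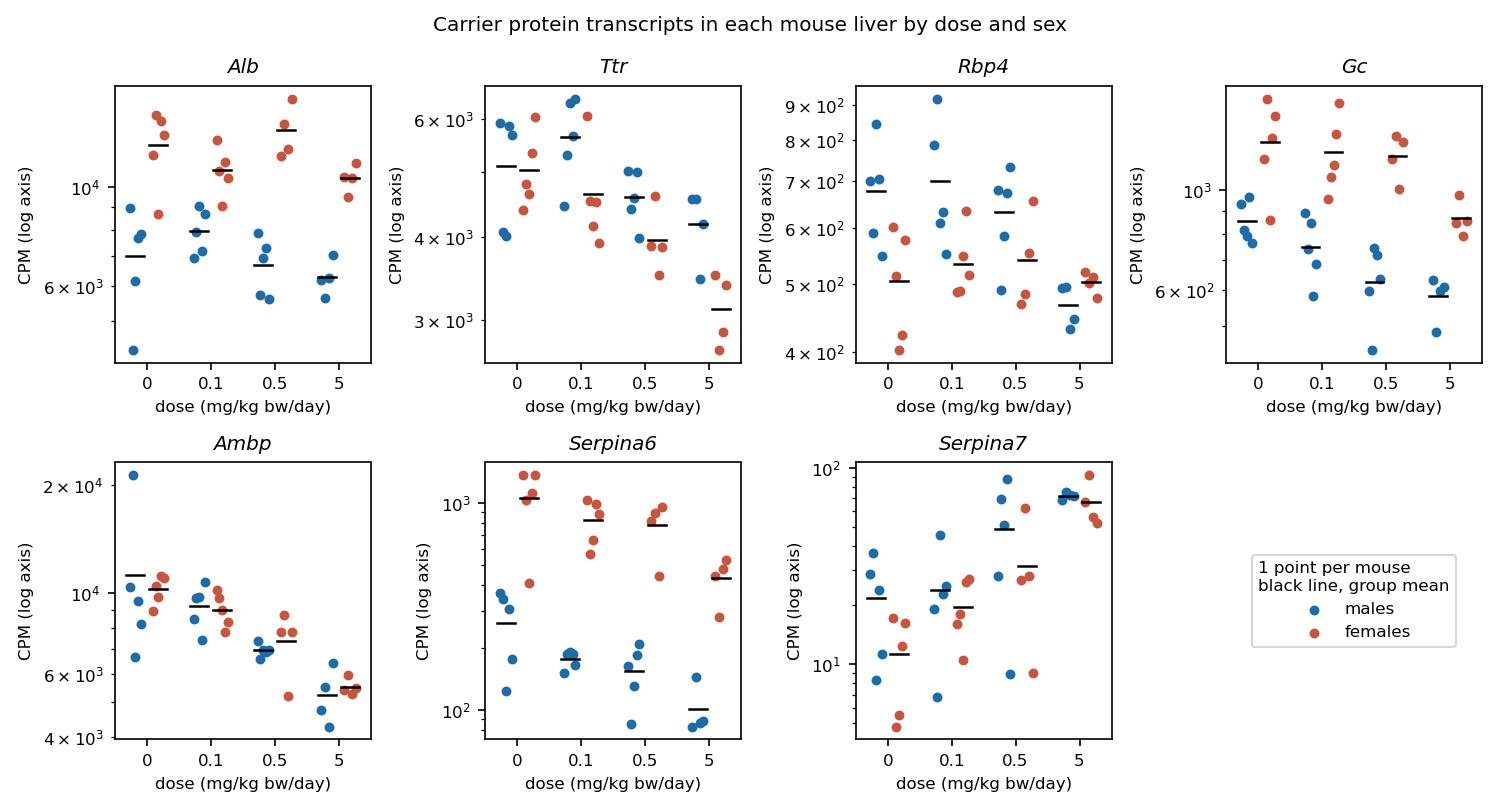
CPM (log axis) of the lead probe of each carrier gene in every mouse, by dose in mg/kg bw/day; blue points are males, red points females, and black lines are group means. Serpina7 at 5 mg/kg lies above all controls in both sexes (68.6 to 75.1 CPM in males), and Serpina6 in females lies above males at every dose.

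At 5 mg/kg, 4 carrier genes were lower and 1 was higher than in controls of the same sex, in males and in females alike. Ambp, Serpina6 and Gc fell and Serpina7 rose in both sexes. Rbp4 fell in males and Ttr in females, and Alb passed the test in neither. Changes were tested with a quasi-likelihood fit in edgeR over all 18570 probes that passed the count filter, and called at a Benjamini-Hochberg adjusted p under 0.10. Of all tested probes, 8.49% were called lower and 4.21% higher in males, and 2.26% lower and 2.26% higher in females. With library totals alone, the balance over all probes turned in males, to 5.92% lower and 7.21% higher, and was 1.97% lower and 2.94% higher in females. The median over the 7 lead probes was -0.54 on the log2 scale for males and -0.56 for females, against -0.12 and -0.01 over all tested probes. Among the 7 genes, 4 in males and 3 in females had control and 5 mg/kg groups that did not overlap, compared with 7.58% and 8.71% of tested probes.

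Serpina7 encodes thyroxine-binding globulin, the high-affinity carrier of thyroid hormone in plasma (GRCm38 chromosome X, bases 139079257 to 139085236, minus strand). The lead probe had 28.7, 36.97, 8.29, 23.9 and 11.2 CPM in male controls and 68.6, 75.1, 72.8 and 71.5 CPM in males at 5 mg/kg. Female controls had 17.2, 4.81, 5.52, 12.4 and 16.2 CPM, and females at 5 mg/kg had 67.3, 91.8, 55.9 and 52.5 CPM. The treated mice lay above all controls in both sexes, and the 4 treated males lay close together. The increase was 3.30-fold in males (log2 fold change 1.72 ± 0.48, SE, adjusted p = 0.018) and 5.96-fold in females (2.57 ± 0.49, adjusted p = 0.0005). The second probe, with only 0 to 137 counts per mouse, was not called (adjusted p = 0.782 in males and 0.313 in females). Its values at 5 mg/kg were 0, 2.43, 4.88 and 11.4 CPM in males, which overlapped the controls at 0 to 4.68 CPM (log2 fold change 0.73, 95% interval -1.53 to 2.98). In females they were 7.94, 10.5, 12.03 and 2.38 CPM, of which 3 lay above the controls at 0.51 to 3.16 CPM. The female log2 fold change of this probe was 2.57 (95% interval 0.26 to 4.87, unadjusted p = 0.030), the same size as for the lead probe.

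Ambp encodes the precursor of α1-microglobulin, a lipocalin that binds heme and other small ligands, and of bikunin, a protease inhibitor (chromosome 4, bases 63143275 to 63154799, minus strand). Male controls had 10388, 21250.2, 6668, 9546 and 8239 CPM, and males at 5 mg/kg had 4763, 5517, 4284 and 6432 CPM. Female controls had 8924, 10494, 9764, 11175 and 11045 CPM, and females at 5 mg/kg had 5420.1, 5935, 5283 and 5468 CPM. All treated mice lay below all controls of their sex, and the single high control was male control 2. The decrease was 2.14-fold in males (log2 fold change -1.10 ± 0.20, adjusted p = 0.00016) and 1.86-fold in females (-0.90 ± 0.20, adjusted p = 0.0033). Without male control 2, the male value was -0.76 with an adjusted p of 0.00084.

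Serpina6 encodes corticosteroid-binding globulin, the main plasma carrier of glucocorticoids (chromosome 12, bases 103646630 to 103657212, minus strand). Values in male controls were 366, 343, 123, 306 and 176 CPM, and in males at 5 mg/kg 83.2, 145, 86.6 and 88.1 CPM. In female controls they were 1358, 1031, 411, 1122 and 1363 CPM, and in females at 5 mg/kg 444, 282, 482 and 528 CPM. One treated male and one low control overlapped, as did 3 treated females and the low female control 3. Serpina6 had the largest decrease among the 7 genes in either sex, 2.60-fold in males (log2 fold change -1.38 ± 0.30, adjusted p = 0.0014) and 2.44-fold in females (-1.28 ± 0.29, adjusted p = 0.0045).

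Gc encodes vitamin D-binding protein, which also scavenges actin released from damaged cells (chromosome 5, bases 89417522 to 89457898, minus strand). It had 929.7, 815, 790.3, 967 and 765 CPM in male controls and 633, 485, 599 and 609.6 CPM in males at 5 mg/kg, without overlap. Female controls had 1173, 1594, 856, 1301 and 1461 CPM, and females at 5 mg/kg had 848, 977, 791 and 855 CPM, with female control 3 inside the treated range. The log2 fold change was -0.55 ± 0.17 (adjusted p = 0.032) in males and -0.56 ± 0.17 (adjusted p = 0.055) in females. The female call was lost when female control 2 or 5, or treated female 1, 3 or 4, was left out, with adjusted p values from 0.123 to 0.201. With counts scaled by library totals alone, the male call was lost (-0.32, adjusted p = 0.217).

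Rbp4 encodes the plasma carrier of retinol (chromosome 19, bases 38116629 to 38125281, minus strand), and Ttr encodes transthyretin, which carries thyroxine and holds the retinol carrier in the circulation. Rbp4 had 700.1, 591, 845, 704 and 548 CPM in male controls and 494, 494, 432 and 445 CPM in males at 5 mg/kg, without overlap. The decrease was 1.45-fold (log2 fold change -0.54 ± 0.16, adjusted p = 0.027), and this call too was lost under library totals alone (-0.32, adjusted p = 0.200). In females, controls had 603, 514, 402, 423 and 577 CPM and treated mice 520.1, 502, 512 and 478 CPM, so that the treated mice lay inside the control range. The female log2 fold change was 0.00 ± 0.16, with a 95% interval from -0.32 to 0.32.

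Ttr passed the test in females and not in males. Female controls had 4386, 4799, 4631, 5339 and 6042 CPM and females at 5 mg/kg had 3505, 2709.5, 2887 and 3385 CPM, without overlap. The female decrease was 1.61-fold (log2 fold change -0.69 ± 0.15, adjusted p = 0.0035). Male controls had 5915, 4069, 4005, 5860.4 and 5678 CPM and males at 5 mg/kg had 4560.0, 4551, 3456 and 4178 CPM, which overlapped. The male log2 fold change was -0.29 (95% interval -0.59 to 0.02, adjusted p = 0.254), and -0.39 (adjusted p = 0.125) without male control 2.

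Alb encodes serum albumin, the most abundant plasma protein (chromosome 5, bases 90460897 to 90476602, plus strand). Its values were 8974, 4304, 6145, 7673 and 7849 CPM in male controls and 6169, 5639.9, 6256 and 7015 CPM in males at 5 mg/kg. Female controls had 11755, 14498, 8699, 14048 and 13037 CPM, and treated females had 10488, 9486, 10465 and 11265 CPM. The groups overlapped in both sexes, and the lowest male control was again male control 2. The 95% interval of the log2 fold change ran from -0.49 to 0.17 in males and from -0.58 to 0.08 in females, so a decrease of the size seen for Ambp lay outside it, and one of the size seen for Gc in females lay inside. Without male control 2, the male value moved from -0.16 to -0.32 (adjusted p = 0.205).

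**Figure D2:**
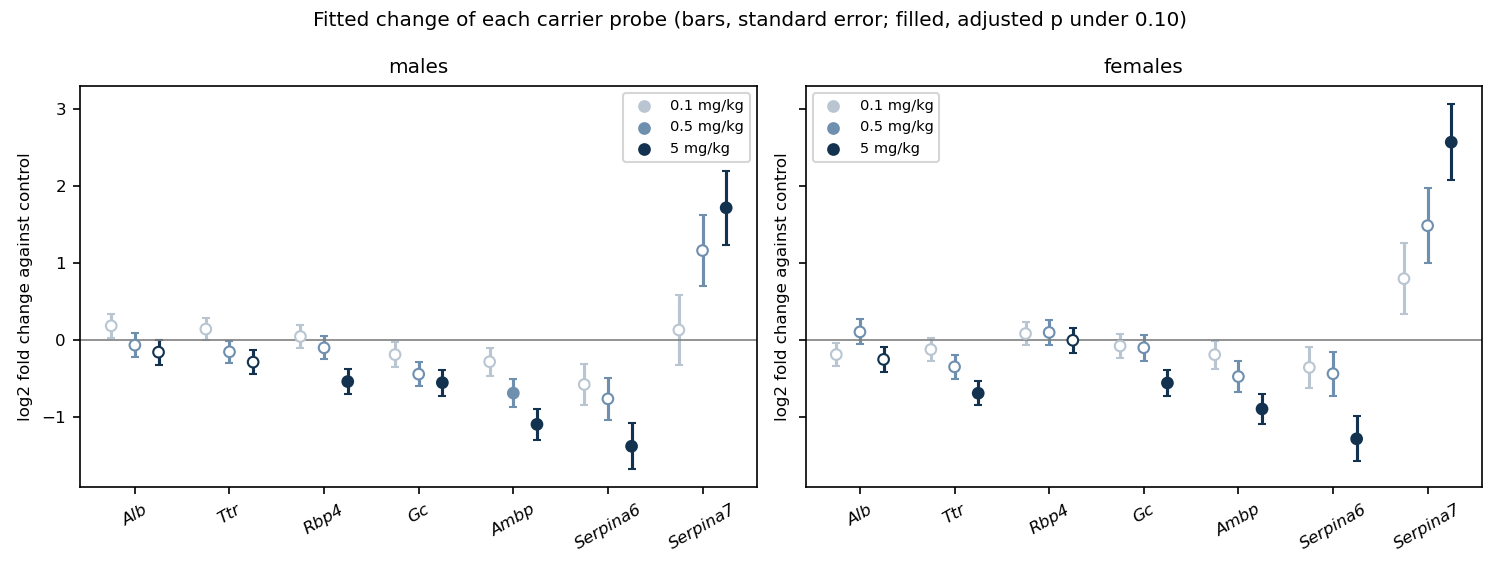
Log2 fold change against same-sex controls (y axis) of each carrier lead probe, with the 3 doses from light (0.1 mg/kg) to dark (5 mg/kg), males left and females right; bars are standard errors and filled points have an adjusted p under 0.10. At 5 mg/kg, 5 genes are filled in each sex, and at 0.5 mg/kg Ambp in males is the single filled point.

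The sexes were compared directly by the interaction of sex and dose. No carrier gene was called at any dose in edgeR, against 0% of tested probes at 0.1 mg/kg, 0.0108% at 0.5 mg/kg and 0.63% at 5 mg/kg. At an unadjusted p under 0.05, 1 of 7 carrier genes was below the threshold at 5 mg/kg, against 10.7% of tested probes. At 0.1 and 0.5 mg/kg it was 0, against 4.46% and 5.13%, and DESeq2 called 0 at each dose. At 5 mg/kg, the female change in Rbp4 exceeded the male change by 0.54 (95% interval 0.08 to 0.99, adjusted p = 0.388) on the log2 scale. For Ttr the female change was lower by 0.40 (95% interval of the difference -0.84 to 0.03, adjusted p = 0.515). A sex difference in the response of these genes was therefore not shown, although each passed the test in one sex alone. The difference for Serpina7 was 0.85, with an interval from -0.52 to 2.23.

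**Figure D3:**
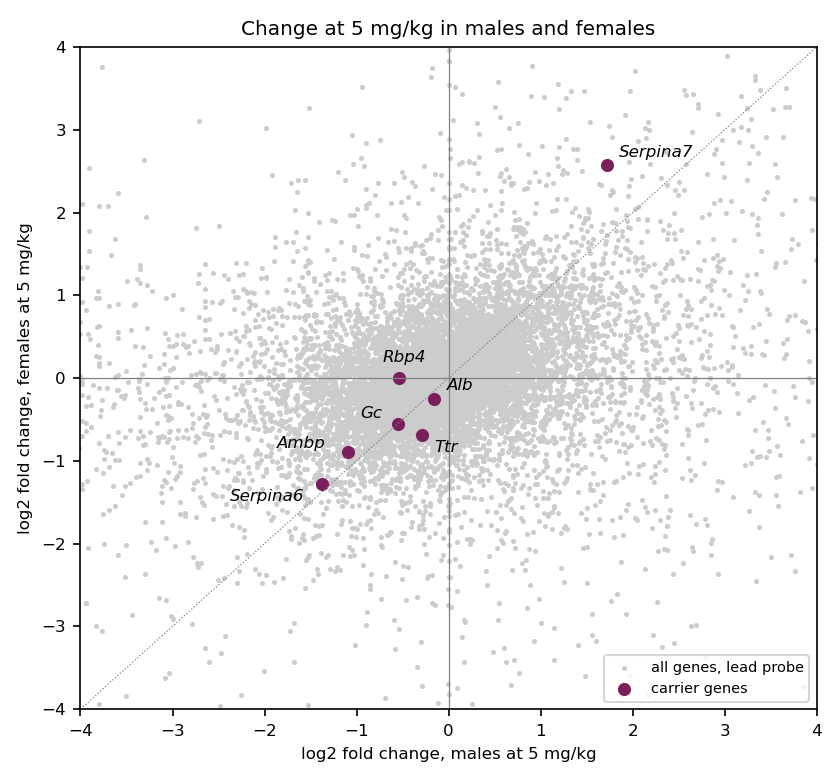
Log2 fold change at 5 mg/kg in males (x axis) and females (y axis) for 12996 genes by their lead probe (grey) with the 7 carrier genes named; the dotted line marks equal change, and genes beyond 4 in either direction are not drawn. Serpina7 (1.72 in males, 2.57 in females) lies in the upper right, and Serpina6, Ambp and Gc in the lower left.

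At 0.5 mg/kg, Ambp in males was the single carrier gene called in either sex, with 0.625% of probes called in males and 0.113% in females. Males at this dose had 7378, 6579, 6978, 6866 and 6987 CPM, which overlapped the lowest male control. The log2 fold change of -0.69 ± 0.19 (adjusted p = 0.097) became -0.32 (adjusted p = 0.435) without male control 2, and the call was kept in only 5 of 37 fits that each left out 1 mouse. An unadjusted p under 0.05 was found for 4 of 7 carrier genes in males (Ambp, Serpina6, Gc and Serpina7), against 10.3% of tested probes. In females it was found for 3 of 7 (Serpina7, Ambp and Ttr), against 4.33%. Serpina7 in males had 28.04, 69.4, 51.2, 87.8 and 8.91 CPM at 0.5 mg/kg (log2 fold change 1.16, adjusted p = 0.350), a wider spread than at 5 mg/kg. Gc in males at 0.5 mg/kg had 597, 443, 743, 719.9 and 636 CPM, all below the lowest control (-0.44, adjusted p = 0.298).

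In females at 0.5 mg/kg, Serpina7 had 26.8, 62.1, 28.04 and 8.96 CPM, of which 3 lay above all controls (log2 fold change 1.49, adjusted p = 0.758). Ambp in these females had 7837, 8725, 5215 and 7819.5 CPM, all below the lowest control (-0.47, adjusted p = 1). Both were called when DESeq2 was fitted to each sex apart (adjusted p = 0.026 and 0.027), a fit that called 3.88% of the 7784 probes to which it gave an adjusted p. Ttr in these females had a log2 fold change of -0.35 (95% interval -0.66 to -0.04, adjusted p = 1).

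At 0.1 mg/kg, 0 carrier genes passed the test in either sex, against 0% of probes. At an unadjusted p under 0.05, 1 carrier gene was below the threshold in males (Serpina6, 263 ± 107 CPM in controls and 176 ± 17.1 CPM at 0.1 mg/kg, SD, n = 5 each), against 7.14% of tested probes. In females it was 0, against 2.38%, and DESeq2 called 0 in either sex. The mean of Ambp in females was lower at each higher dose, at 10280.3, 9015, 7399 and 5526 CPM from 0 to 5 mg/kg. In males the means were 11218, 9231, 6958 and 5249 CPM, but the control mean was 8710 CPM without male control 2, below that at 0.1 mg/kg. No trend test was run on this order.

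Carrier transcripts also differed between the sexes in controls, where 3 carrier genes were higher in the lactating females and 0 lower. Among all tested probes, 1.36% were called higher and 1.24% lower in female controls, and 2.63% higher and 0.845% lower with library totals alone. Serpina6 was 4.02-fold higher in female controls (log2 fold change 2.01 ± 0.28, adjusted p = 2.2e-06), and its lowest female control, at 411 CPM, exceeded the highest male control at 366 CPM. The groups of females and males stayed apart for Serpina6 at each dose, with a ratio of means between 4.02 and 5.05. Alb was 1.78-fold higher in female controls, which overlapped the males through female control 3 (0.83 ± 0.16, adjusted p = 0.00053; 0.67, adjusted p = 0.0053, without male control 2), with a ratio of means between 1.37 and 2.0001 over the 4 doses. Gc was 1.497-fold higher (0.58 ± 0.16, adjusted p = 0.039).

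Rbp4 was not called between the control sexes (-0.43, adjusted p = 0.179), nor was Serpina7 (-0.96, adjusted p = 0.432), while Ttr and Ambp had log2 differences of -0.02 and -0.13 with 95% intervals of -0.31 to 0.27 and -0.50 to 0.25. Without male control 2, the Ambp difference turned to 0.21 (adjusted p = 0.684). The ratio of female to male mean Rbp4 was 0.744 in controls and 1.08 at 5 mg/kg, the reverse order. Females and males overlapped in controls and at 5 mg/kg, so a reversal between the sexes was not shown. At the level of the library, the carrier probes took a median of 2.36% of counts in male controls and 1.82% at 5 mg/kg. In females the median share was 3.31% in controls and 2.25% at 5 mg/kg, and the highest treated female, at 2.30%, lay below the lowest control, at 2.53%.

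Other genes of the same pathways were examined by their lead probes at 5 mg/kg, where the shares of all tested probes called lower were 8.49% in males and 2.26% in females, and those called higher 4.21% and 2.26%. Of 15 tested plasma binding proteins outside the 7, 9 fell and 0 rose in males (median log2 fold change -1.27), and 3 fell and 1 rose in females (-0.57). The median over all genes by lead probe was -0.11 in males and -0.02 in females. Without male control 2 the male count was 6, with a median of -0.50, and Hp, Orm2 and Orm3 were no longer called. In that fit, which estimates the spread over all groups, the female counts were 4 lower and 2 higher, with Hp and Orm1 added. Orm2 changed sign, from -4.79 to 1.37 (adjusted p = 0.225), when male control 2 was left out. At 0.5 mg/kg in males, Orm1 and Orm2 were the listed genes called, and neither was without this mouse.

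Apom, which carries sphingosine-1-phosphate on HDL, fell in males (log2 fold change -2.11 ± 0.31, adjusted p = 5.5e-06) and had a log2 fold change of -0.51 (adjusted p = 0.529) in females. Igfbp4, a carrier of insulin-like growth factors, fell in both sexes (males -0.83, adjusted p = 0.00025; females -0.57, adjusted p = 0.026). Orm1 fell in males by 2.95 on the log2 scale, and by 1.63 (adjusted p = 2.9e-05) without male control 2. With the settings of the tests above, Igfbp2 was the single listed carrier that rose, in females (1.91, adjusted p = 0.00022). Its value in males was 0.72 (adjusted p = 0.193). It was called higher in males with library totals alone and without the libraries under 5000000 counts. In females, 2 listed genes rose with each sex fitted apart, as without male control 2.

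Among genes of thyroid hormone handling, 2 of 9 tested fell in males and 1 in females. The female count was 3 with DESeq2, with each sex fitted apart and without the libraries under 5000000 counts, where Slc16a10 and Slco1b2 were also called. Slco1b2, an uptake transporter of hepatocytes, fell in males (-0.95, adjusted p = 0.0031) and had a value of -0.62 (adjusted p = 0.128) in females. The receptor gene Thrb (-1.003, adjusted p = 0.109 in males) and the transporter gene Slc16a10 (-0.75, adjusted p = 0.131) were not called in males, nor in females in the edgeR fit to all mice. Serpina7, the thyroxine carrier, thus moved in the opposite direction to Slco1b2 in males.

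Glucocorticoid genes fell mainly in males, where 6 of 10 were lower at 5 mg/kg and 0 higher (median log2 fold change -1.92), compared with 1 of 10 lower in females (-0.30). Whether the sexes differed in this list was not tested. Hsd11b1, which regenerates active glucocorticoid from its inert form, had a mean of 208 ± 23.9 CPM in male controls and 28.6 ± 10.8 CPM at 5 mg/kg (log2 fold change -2.86, adjusted p = 2.1e-12). In females it had 351 ± 76.1 and 114 ± 27.02 CPM (-1.63, adjusted p = 4.6e-07; SD, n = 5 and 4 in each sex). Akr1d1, a steroid reductase, fell in males (-2.13, adjusted p = 8.7e-08), as did the glucocorticoid-responsive genes Tat (-2.86, adjusted p = 0.0002) and Tsc22d3 (-1.61, adjusted p = 0.00097). In females Akr1d1, Tat and Tsc22d3 had log2 fold changes of -0.61, 0.38 and -0.56 and were not called in the edgeR fit to all mice. The female count was 2 of 10 lower with DESeq2 and with each sex fitted apart, where Akr1d1 was also called.

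Of 11 tested retinol genes besides Rbp4, 1 rose in males and 2 in females, and 0 fell. Aldh1a1, which oxidizes retinal to retinoic acid, rose in males (0.71, adjusted p = 0.060) and females (1.22, adjusted p = 0.00086). Its male call was lost with each sex fitted apart (0.70, adjusted p = 0.113), and with library totals alone the male count was 3, with Lrat and Rdh16. Rdh16, a retinol dehydrogenase, rose in females (1.34, adjusted p = 0.035). With the settings of the tests above, Lrat (1.86, adjusted p = 0.101) and Stra6l (-2.92, adjusted p = 0.132) were not called in males. Neither was called in females, and both had few counts. In males, Lrat was called higher with library totals alone, with DESeq2, with DESeq2 size factors in edgeR and without the libraries under 5000000 counts. DESeq2 also called Stra6l lower in males, and counted 3 retinol genes higher and 1 lower. Only 3 of 7 genes of vitamin D handling were tested, of which Cyp27a1, a vitamin D 25-hydroxylase, fell in males (-0.94, adjusted p = 0.013). Cyp2r1 and Vdr were not called in either sex (adjusted p = 0.892 and 0.658 in males).

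Of 17 hepatocyte transcription factors, 1 fell in each sex, against 8.49% of all tested probes called lower in males and 2.26% in females. Foxa3 fell in males (-1.003, adjusted p = 0.0089) and had a value of 0.67 (adjusted p = 0.170) in females. In females, Foxa3 and Cebpb were called higher with DESeq2, with library totals alone and with each sex fitted apart. The last of these fits called 3 factors lower in females. Rxra, a partner of several nuclear receptors, fell in females (-0.55, adjusted p = 0.044) and had a value of -0.42 (adjusted p = 0.100) in males, where DESeq2 called it (adjusted p = 0.090). Without the libraries under 5000000 counts, Foxa3 in males was not called (-0.75, adjusted p = 0.152) and Foxa1 was. Cebpb and Ppara were not called in either sex in the edgeR fit to all mice, apart from Cebpb in females with library totals alone.

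**Figure D4:**
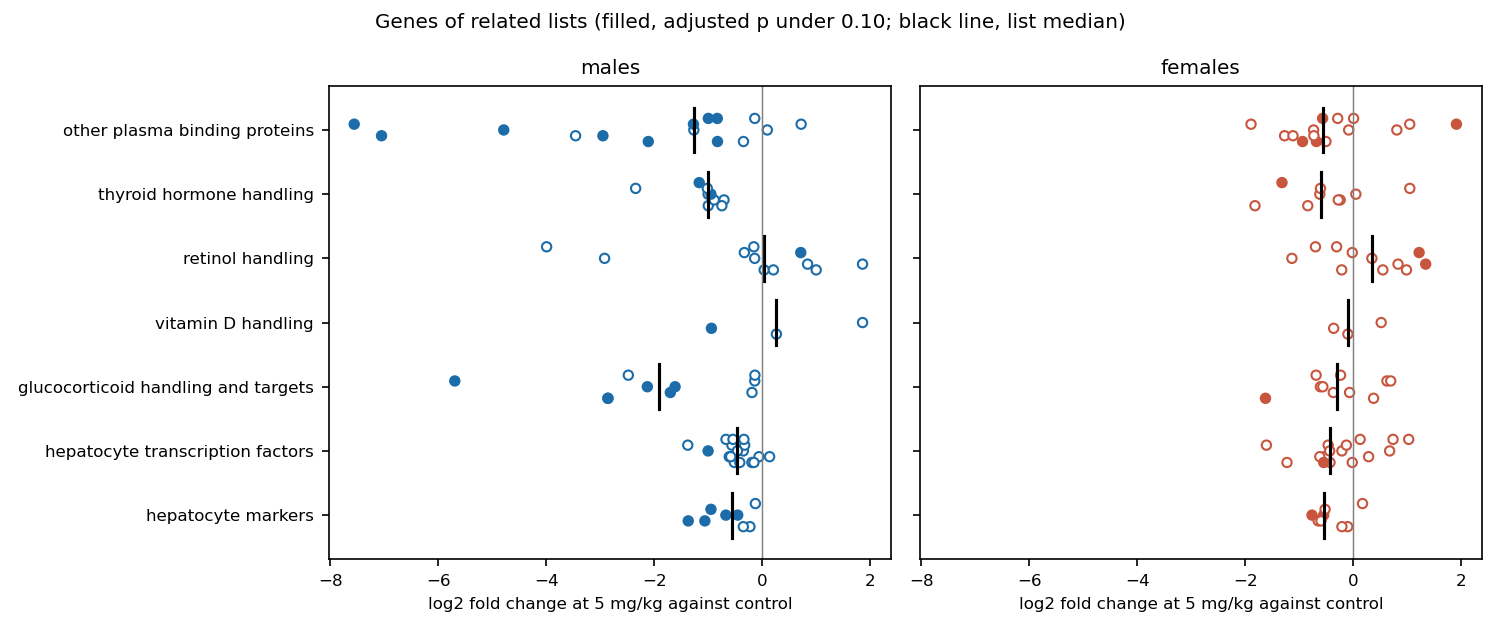
Log2 fold change at 5 mg/kg (x axis) of the genes of each related list and of the hepatocyte markers, males left and females right; filled points have an adjusted p under 0.10 and black lines are list medians. The glucocorticoid list has its male median at -1.92 and its female median at -0.30.

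Some hepatocyte markers outside the carriers also fell at 5 mg/kg, 5 of 8 in males and 2 of 8 in females, and 0 rose. The shares of all tested probes called lower were 8.49% in males and 2.26% in females. The male count was 4, with Asgr1 no longer called, without male control 2, with library totals alone and with each sex fitted apart. It was 3 without the libraries under 5000000 counts. The female count was 4 with DESeq2 and with each sex fitted apart, where Asgr2 and Fga were also called. The summed level of 8 markers (Apob, Cps1, Asgr1, Asgr2, Tdo2, Hnf4a, Fga and F2) ranged from 5346 to 8578 CPM in male controls and from 3026 to 4974 CPM in males at 5 mg/kg. In females the ranges were 5637 to 7066 CPM and 4176 to 6382 CPM, which overlapped. All 8 had counts. The part of this shift in the carrier results was not tested. Summed markers of cholangiocytes, Kupffer cells and lymphocytes overlapped between controls and 5 mg/kg in each sex, and none of these markers was called. The summed stellate cell markers ranged from 129 to 256 CPM in male controls and from 209 to 302 CPM in males at 5 mg/kg, and 1 of 5 endothelial markers was called lower in males. Adipocyte markers summed to at most 3.23 CPM in any mouse, and exocrine pancreas markers to at most 31.97 CPM. Red blood cell markers reached 143 CPM in the median male control and 23.8 CPM in the median female control.

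The genes whose profile was most like that of each carrier were found among 5598 genes with a mean of at least 10 CPM, by Pearson correlation over 37 mice after the mean of each sex was subtracted. The mice share the dose groups and the scaling of their libraries, so these values describe co-variation under this design. Ambp was most like Cfb (r = 0.94), an acute-phase complement factor, and Fn1 (r = 0.92), which encodes plasma fibronectin. Both values were 0.92 over the 36 mice without male control 2, and Fn1 then ranked 1 and Cfb 2. Serpina6 was most like Kng1 (r = 0.84), the kininogen gene, and Slc6a12 (r = 0.82). Gc was most like the antithrombin gene Serpinc1 (r = 0.81) and Kng1 (r = 0.80).

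Serpina7 was most like Scd1 (r = 0.81), the stearoyl-CoA desaturase. Scd1 rose in males and females at 5 mg/kg (log2 fold change 1.78 and 2.25). Ttr was most like Cyp2d10 (r = 0.82) and Cfhr2 (r = 0.81), and Rbp4 like Apoh (r = 0.79) and Sord (r = 0.78). Alb had the weakest likeness of the 7, with r = 0.59 for Ttr and for Rnf128. Without male control 2, Ttr was most like Ambp (r = 0.84), and Alb like Afm (r = 0.66), the gene of a vitamin E-binding protein, while the gene ranked 1 for the other carriers besides Ambp did not change.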

How the data were processed

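Sequencing reads were demultiplexed with bcl2fastq 2.17.1.14 and aligned to the probe sequences with Bowtie, per the labels and the submitters' processing notes; the authors removed 3 low-quality mice and deposited raw counts per probe, without normalization. Values were whole numbers. The tests used edgeR 4.0.16 (R 4.3.3), with filterByExpr by the 8 groups, TMM scaling, a quasi-likelihood fit to all 37 mice, and Benjamini-Hochberg adjustment over 18570 probes per comparison, called under 0.10. CPM are TMM-scaled, and log2 CPM for profiles used a prior count of 2. Each library was a separate mouse, and no 2 libraries of a group agreed within sampling noise (68 pairs). The fit was tested on simulated data.

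Alternatives were DESeq2 1.42.0, other scalings and filters, a threshold of 0.05, summed probes, thinned counts and each mouse left out. Leaving out the 4 libraries under 5000000 counts, and the list counts and likeness without male control 2, were chosen after seeing the data. Named genes were the members, up to 4 genes per list with the smallest adjusted p at 5 mg/kg, list genes called at lower doses, and the 2 most similar genes per member; Hp and Orm3 were named after their values were seen. The values of some genes that this rule names are not reported here. The members and lists were chosen with earlier results of these data known.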

Additional observations from a re-analysis of the deposited data

Results flagged for a closer look

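In 3 of 56 sets of a carrier gene and a group, the highest mouse lay farther from the others than Dixon's 95% limit allows, and chance gives about 1 in 20. Ambp in male control 2 was 21250.2 CPM, against 6668 to 10388 CPM in the other 4 male controls, and the same mouse had the Orm1 and Orm2 values given above. Serpina6 in male 2 at 5 mg/kg was 145 CPM, against 83.2 to 88.1 CPM in the other 3 mice. Ttr in female 1 at 0.1 mg/kg was 6064 CPM, against 3913 to 4521 CPM in the other 4 mice.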

How the results depend on the processing

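Of the 33 log2 fold changes examined, the calls for Ambp, Serpina6 and Serpina7 at 5 mg/kg in both sexes, Ttr in females, and Serpina6 and Alb between control sexes were kept under all alternatives run. With library totals alone, 3 carrier genes were called in males at 5 mg/kg in place of 5, and the median of all tested probes in males moved from -0.12 to 0.08, with more probes called higher (1339) than lower (1100), against 782 and 1577. No carrier gene (0 in place of 1) was called in males at 0.5 mg/kg with a mean of at least 10 counts, each sex fitted apart, a threshold of 0.05, or without the libraries under 5000000 counts; leaving out single mice gave 0 to 1. In females at 0.5 mg/kg, DESeq2 fitted to each sex apart called 2 in place of 0. That fit called 3.88% of the 7784 probes to which it gave an adjusted p, and the main fit 0.113% of 18570. These 2 shares have different denominators. The causes were not tested.

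Among the log2 fold changes of the carriers, signs turned only in values that were not called; of the other listed genes, Orm2 in males turned as given above. Rbp4 in females at 5 mg/kg became 0.0025 with DESeq2 size factors in edgeR or in DESeq2, 0.078 with library totals alone, 0.0090 with DESeq2 in each sex apart and 0.0015 with summed probes, and ran from -0.088 to 0.070 when single mice were left out. Alb in males at 5 mg/kg became 0.066 with library totals alone. Between control sexes, Ttr and Ambp became 0.10 and 0.037 with library totals alone, and ran from -0.11 to 0.027 and from -0.28 to 0.21 when single mice were left out. Rbp4 between control sexes was called by DESeq2 (adjusted p = 0.030), with thinned counts (0.085) and with a mean of at least 10 counts (0.099). The call of Gc there was lost without male control 3 or 5, or female control 2, 4 or 5. No paired analysis was possible because the labels give no shared replicate numbers. Counts of 0 to 137 limited what the second Serpina7 probe could show.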
